A study of Mus musculus with 9 samples.

Results

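The 10 genes described here encode enzymes of methionine, serine and folate-linked one-carbon metabolism: Mat1a, Mat2a, Gnmt, Bhmt, Cbs, Cth, Phgdh, Psat1, Mthfd2 and Shmt2. They were taken by name from the table of gene counts, which has 37203 gene entries, and all 10 were among the 14581 genes with enough counts to be tested. The samples were 9 rat liver libraries, sequenced on the Ion Proton platform, in 3 groups of 3. The label of the first group is normal, and its animals received olive oil as a sham. The fibrosis group was given carbon tetrachloride (CCl4), which cytochrome P450 enzymes of the liver convert to a reactive radical, as a 50% mixture in olive oil at 2 mL/kg, 3 times a week over 8 weeks. The schisandrin B group received CCl4 over the same 8 weeks and, with it during the last 4, daily schisandrin B, a lignan of Schisandra fruit. The study gave schisandrin B at 25 or 50 mg/kg, and the labels of the 3 libraries do not say which dose applies. All animals are labelled male Wistar rats, and the study put 8 animals in each of 4 groups. Nothing in the labels ties each library to its own animal. Replicate numbers follow the order of the sample records within a group, name a library only and come from no label. SDs and p-values describe the scatter among these libraries alone, which may be technical.

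Methionine adenosyltransferases make S-adenosylmethionine, the methyl donor of the cell. Mat1a encodes the catalytic subunit of the adult hepatocyte, and Mat2a the one used in most other tissues and in fetal and injured liver. Gnmt burns surplus methyl groups on glycine, Bhmt uses betaine to turn homocysteine back into methionine, and Cbs and Cth carry the sulfur of homocysteine on to cysteine. Phgdh and Psat1 catalyse the opening steps by which serine is made from a glycolysis intermediate. Shmt2 moves the carbon unit of serine onto folate inside mitochondria. Mthfd2, a folate dehydrogenase there, acts after it and is usually scarce in resting adult tissue. Phgdh, Psat1, Mthfd2 and Shmt2 are among the known targets of the stress-response transcription factor ATF4. The other members were not sorted by whether ATF4 acts on them.

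Totals ran from 10320299 to 16255167 counts per library. Levels are given in CPM (counts relative to library size, scaled by the trimmed mean of M values, TMM), not divided by gene length, so they are compared between libraries and not between genes. The floor of 3 counts was 0.176 to 0.287 CPM. A gene is called, and said to have risen or fallen, where the adjusted p of edgeR's quasi-likelihood test over all tested genes was under 0.05. Changes are log2 fold changes with their standard error (SE). The hepatocyte markers, with albumin (Alb) in first place, were present at high levels in all 9 libraries. Their summed level was 263522 to 295987 CPM in the libraries labelled normal, 100065 to 145448 CPM in fibrosis libraries and 225208 to 247689 CPM in schisandrin B libraries. Kdm5d and Eif2s3y, Y-linked genes, had 0 counts in all libraries labelled normal and 354 and 445 counts in the fibrosis libraries together, against a label of male for every animal. In a comparison with the libraries labelled normal, this difference and the treatment cannot be told apart. It does not enter the comparison of schisandrin B with fibrosis, where both genes were counted in all 6 libraries. Another Y-linked gene, Ddx3y, whose reads can be shared with an X-linked copy, was at 0.813 to 2.59 CPM in the libraries labelled normal, 0.971 to 1.53 CPM in fibrosis and 0.510 to 1.53 CPM in schisandrin B libraries.

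In fibrosis libraries Mat1a, Bhmt, Cbs and Cth, which act in the methionine cycle and cysteine formation, fell, and Gnmt was not called. Mat2a and the serine and mitochondrial folate genes Phgdh, Psat1, Mthfd2 and Shmt2 rose. In schisandrin B libraries Mat1a, Gnmt, Cbs and Cth were called higher than in fibrosis libraries, Mat2a, Phgdh, Psat1, Mthfd2 and Shmt2 lower, and Bhmt was not called. Against the libraries labelled normal, fibrosis libraries had 5 members called higher and 4 lower, 9 of 10 in all, where 48.3% of all tested genes were called, 25.4% higher and 22.9% lower. Against fibrosis, schisandrin B libraries had 4 called higher and 5 lower, where 47.3% of all tested genes were called, 22.5% higher and 24.8% lower. Between schisandrin B libraries and those labelled normal, edgeR called 1 member, Psat1, which was lower, where 10.5% of all tested genes were called, 5.25% higher and 5.25% lower. The 2 groups had no overlapping values in 9, 9 and 7 members in the 3 comparisons, with 55.8%, 56.8% and 38.7% of all tested genes so separated. Fibrosis libraries enter both of the first comparisons, so their values are given side by side and not as independent results. The members were chosen with earlier results of these data known. Their counts beside the shares over all tested genes are therefore no independent result about the pathway.

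**Figure D1:**
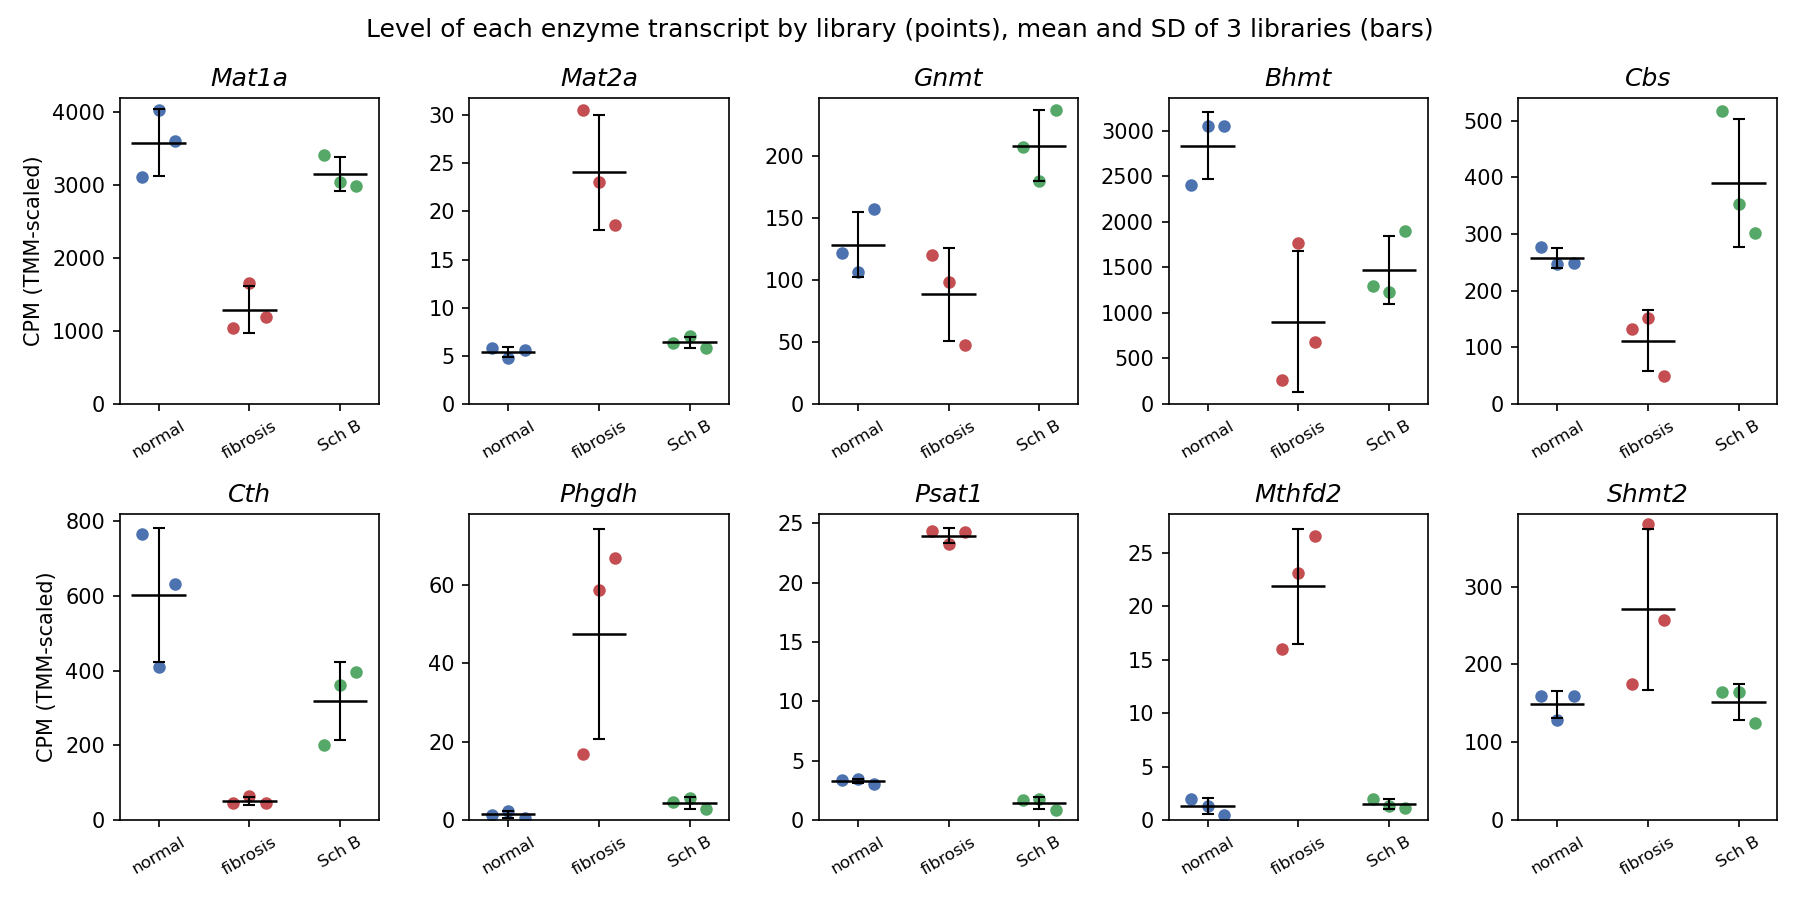
Each panel plots the TMM-scaled CPM of 1 gene (vertical axis, from 0) in the 3 libraries of each group (points), with the mean and SD as bars. Mat2a, Phgdh, Psat1, Mthfd2 and Shmt2 are highest in the fibrosis libraries, while Mat1a, Bhmt, Cbs and Cth are lower there than in the libraries labelled normal.

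Mat1a was at 3115, 4030 and 3615 CPM in the libraries labelled normal, at 1034, 1654 and 1187 CPM in fibrosis libraries and at 3420, 3040 and 2996 CPM in schisandrin B libraries. All fibrosis libraries lay below all others, and the other 2 groups overlapped. Mat1a fell by 1.47 ± 0.23 (SE) in fibrosis libraries (edgeR adjusted p 0.000325) and was 1.29 ± 0.23 higher with schisandrin B than in fibrosis (edgeR adjusted p 0.000825). Schisandrin B libraries differed from those labelled normal by -0.19 with a 95% interval of -0.68 to 0.31, without a call (edgeR adjusted p 0.655). Over the same libraries 8 of 16 hepatocyte markers fell and 0 rose in fibrosis, beside 22.9% and 25.4% of all tested genes. Their median was -0.62, and Alb fell by 1.75 on the log2 scale. With schisandrin B 7 of the 16 were called higher and 1 lower than in fibrosis, with a median of 0.51, beside 22.5% and 24.8% of all tested genes. In bulk tissue, fewer hepatocytes and less of an RNA per hepatocyte cannot be told apart, and the part of cell numbers in these falls was not tested.

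Mat2a moved the other way. It stood at 5.75, 4.81 and 5.59 CPM in the libraries labelled normal, at 30.5, 23.1 and 18.6 CPM in fibrosis libraries and at 6.31, 6.999 and 5.84 CPM in schisandrin B libraries. The fibrosis libraries were all above the rest, with replicate 1 the highest for Mat2a and the lowest for Mat1a. Mat2a rose by 2.16 ± 0.23 in fibrosis (edgeR adjusted p 2.33e-05) and was lower with schisandrin B than in fibrosis, at -1.91 ± 0.22 (edgeR adjusted p 5.85e-05). Schisandrin B libraries were all slightly above those labelled normal, by 0.25 with a 95% interval of -0.25 to 0.75, without a call (edgeR adjusted p 0.539). Mat2b, the regulatory subunit that partners Mat2a, was 0.40 higher in fibrosis without a call and was called lower with schisandrin B, at -0.52; it was chosen from the list after its values were seen.

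The ratio of Mat1a to Mat2a compares the adult with the non-hepatic form within each library and so does not depend on scaling between libraries. It was 527, 812 and 630 in the libraries labelled normal, 33.7, 71.2 and 63.2 in fibrosis libraries and 529, 425 and 500 in schisandrin B libraries. The log2 ratio was 9.34 ± 0.31 (SD, n = 3) in the libraries labelled normal, 5.74 ± 0.58 (SD, n = 3) in fibrosis and 8.91 ± 0.16 (SD, n = 3) in schisandrin B libraries. Fibrosis libraries did not overlap with either other group, with differences of -3.60 from normal and 3.18 between schisandrin B and fibrosis. For both, the two-sided exact permutation test gave p = 0.10, the smallest value that 3 against 3 libraries allow. Schisandrin B libraries overlapped with those labelled normal at a difference of -0.42 (exact permutation p = 0.20).

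**Figure D2:**
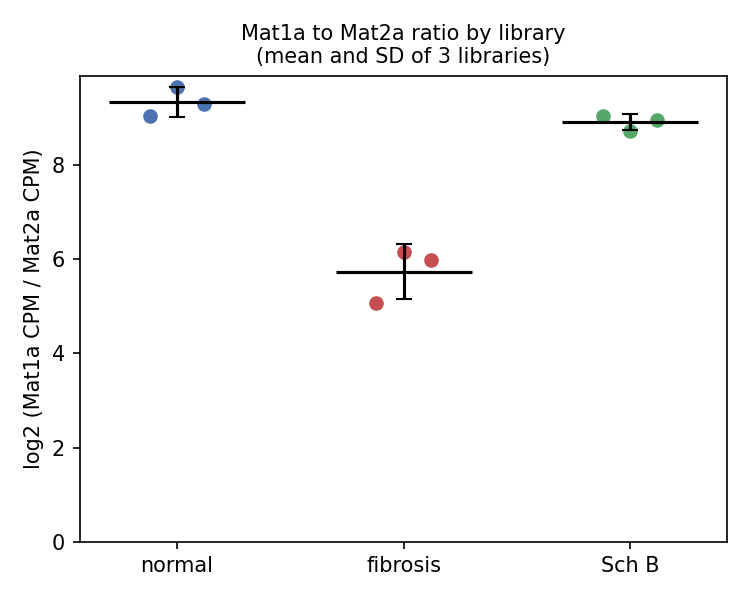
The vertical axis is the log2 ratio of Mat1a to Mat2a CPM and each point is 1 library, with the mean and SD of the 3 libraries of a group as bars. The fibrosis libraries, at 5.08 to 6.15, lie below the libraries of both other groups, at 8.73 to 9.67.

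Gnmt, the glycine methyltransferase that is abundant in normal liver, had its highest level with schisandrin B. It was at 121, 106 and 157 CPM in the libraries labelled normal, at 120, 97.9 and 47.0 CPM in fibrosis libraries and at 207, 180 and 237 CPM in schisandrin B libraries. Every schisandrin B library exceeded the other 6, while fibrosis libraries overlapped with those labelled normal. Against fibrosis libraries Gnmt was called higher with schisandrin B, by 1.24 ± 0.30 (edgeR adjusted p 0.0057). Against the libraries labelled normal, fibrosis stood at -0.54 with a 95% interval of -1.19 to 0.12 (edgeR adjusted p 0.158), a difference that was called only without fibrosis replicate 1 (-0.82, edgeR adjusted p 0.036). Schisandrin B stood at 0.70 against normal (edgeR adjusted p 0.161), which was called without fibrosis replicate 3 (0.70, edgeR adjusted p 0.0468), in the fit of the 2 groups alone (0.71, adjusted p 0.015) and with library totals (0.86, adjusted p 0.0447).

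Bhmt was the most variable member within fibrosis, with a coefficient of variation of 86.1%. Its levels were 2408, 3049 and 3053 CPM in the libraries labelled normal, 260, 1768 and 683 CPM in fibrosis libraries and 1292, 1227 and 1904 CPM in schisandrin B libraries. All libraries labelled normal were above the rest, and fibrosis and schisandrin B overlapped because fibrosis replicate 2 lay within the schisandrin B range. Bhmt fell by 1.65 ± 0.55 in fibrosis (edgeR adjusted p 0.03), a call that was lost without normal replicate 2 (adjusted p 0.0668), without normal replicate 3 (0.0684) and without fibrosis replicate 3 (0.0928), and the fall reached -2.59 without fibrosis replicate 2. It was also lost with library totals (adjusted p 0.0862), without the filter on low counts (0.117) and in the fit of the 2 groups alone (0.0506). Schisandrin B differed from fibrosis by 0.71 with a 95% interval of -0.49 to 1.90, without a call (edgeR adjusted p 0.307), except without fibrosis replicate 2 (1.64, adjusted p 0.006). Schisandrin B libraries stayed below those labelled normal, at -0.94 with an interval of -2.14 to 0.26 (edgeR adjusted p 0.301), and this was called in the fit of the 2 groups alone (adjusted p 0.00605). The close paralog Bhmt2 may share reads with Bhmt, which makes the single values uncertain; it fell by 3.04 in fibrosis and was 2.41 higher with schisandrin B, both called.

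Cbs, cystathionine beta-synthase, condenses homocysteine with serine. It was at 277, 247 and 248 CPM in the libraries labelled normal, at 133, 152 and 49.9 CPM in fibrosis and at 517, 352 and 301 CPM in schisandrin B libraries. The 3 groups did not overlap with each other, in the order fibrosis, normal, schisandrin B. Cbs fell by 1.21 ± 0.36 in fibrosis (edgeR adjusted p 0.0163), a call that library totals just ended (adjusted p 0.0503), and was 1.81 ± 0.36 higher with schisandrin B than in fibrosis (edgeR adjusted p 0.00194). The difference of 0.60 between schisandrin B and normal was not called (95% interval -0.18 to 1.38, edgeR adjusted p 0.312) except in the fit of the 2 groups alone (adjusted p 0.0473).

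Cth, cystathionine gamma-lyase, releases cysteine from cystathionine and showed the deepest fall of the 10. It was at 765, 410 and 632 CPM in the libraries labelled normal, at 45.0, 64.3 and 44.7 CPM in fibrosis and at 200, 362 and 396 CPM in schisandrin B libraries. Again no groups overlapped, with schisandrin B between the other 2. Cth fell by 3.55 ± 0.33 in fibrosis (edgeR adjusted p 1.18e-05) and was 2.64 ± 0.32 higher with schisandrin B than in fibrosis (edgeR adjusted p 6.92e-05). Its remaining difference from normal was -0.92 with an interval of -1.58 to -0.25, not called by edgeR (adjusted p 0.0764) and called by DESeq2 (adjusted p 0.0338).

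Phgdh, the dehydrogenase that commits carbon to serine, rose most. It had 16, 35 and 7 counts in the libraries labelled normal, or 1.37, 2.37 and 0.567 CPM, against 16.8, 58.7 and 66.8 CPM in fibrosis and 4.49, 5.69 and 2.83 CPM in schisandrin B libraries. The groups did not overlap, and fibrosis replicate 1 was far below the other fibrosis libraries. Phgdh rose by 5.01 ± 0.62 in fibrosis (edgeR adjusted p 0.000136), or by 5.60 without normal replicate 2, and was lower with schisandrin B than in fibrosis, at -3.44 ± 0.56 (edgeR adjusted p 0.000748). Schisandrin B libraries were 1.57 above normal (interval 0.18 to 2.95) without a call (edgeR adjusted p 0.139), and a call was made by DESeq2 (adjusted p 0.029), in the fit of the 2 groups alone (0.0347) and without fibrosis replicate 1 (0.0257). Without normal replicate 2 that difference was 2.17, again without a call (adjusted p 0.116).

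Psat1, the aminotransferase that follows Phgdh, had the lowest coefficient of variation of the members in fibrosis, at 2.60%. Its counts there were 301, 307 and 413, for which counting error alone is larger than that, so the value does not show a steady gene. Its levels were 3.35, 3.45 and 3.08 CPM in the libraries labelled normal, 24.4, 23.2 and 24.3 CPM in fibrosis and 1.72, 1.75 and 0.822 CPM in schisandrin B libraries. No groups overlapped, and schisandrin B was the lowest. Psat1 rose by 2.86 ± 0.25 in fibrosis (edgeR adjusted p 8.80e-06) and was lower with schisandrin B than in fibrosis, at -4.05 ± 0.28 (edgeR adjusted p 4.49e-06). It was also called lower than in the libraries labelled normal, at -1.19 ± 0.28 (edgeR adjusted p 0.0209). That call rests on 18, 24 and 9 counts against 39, 51 and 38. It was lost without any 1 of the libraries labelled normal (adjusted p 0.0563, 0.0582 and 0.0503) or without schisandrin B replicate 3 (0.0694).

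Mthfd2, the mitochondrial folate dehydrogenase, was near its detection limit outside fibrosis. It had 23, 20 and 6 counts in the libraries labelled normal, or 1.98, 1.35 and 0.486 CPM, and stood at 16.03, 23.1 and 26.6 CPM in fibrosis and at 2.01, 1.31 and 1.10 CPM in schisandrin B libraries. Only the fibrosis libraries stood apart. Mthfd2 rose by 4.10 ± 0.42 (edgeR adjusted p 1.90e-05) and was lower with schisandrin B than in fibrosis, at -3.90 ± 0.41 (edgeR adjusted p 3.14e-05). Schisandrin B differed from normal by 0.20 with an interval of -0.78 to 1.19 (edgeR adjusted p 0.823). Of 7 tested proliferation markers 1 rose and 4 fell in fibrosis, with Mki67 at -1.90, and 0 were called between schisandrin B and fibrosis. Against the libraries labelled normal, 4 of the 7 were lower with schisandrin B and 0 higher, where 5.25% of all tested genes were called each way. Of all tested genes 25.4% rose and 22.9% fell in fibrosis, and 22.5% were higher and 24.8% lower with schisandrin B than in fibrosis.

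Shmt2, the mitochondrial serine hydroxymethyltransferase, changed least among the members that rose. It was at 159, 129 and 159 CPM in the libraries labelled normal, at 175, 380 and 257 CPM in fibrosis and at 164, 165 and 125 CPM in schisandrin B libraries. All fibrosis libraries were above the rest, replicate 1 only narrowly. Shmt2 rose by 0.86 ± 0.26 (edgeR adjusted p 0.018), a call lost without fibrosis replicate 2 (0.54, adjusted p 0.0752) or normal replicate 2 (0.76, adjusted p 0.0736). It was lower with schisandrin B than in fibrosis, at -0.84 ± 0.26 (edgeR adjusted p 0.0209), and this call was lost without fibrosis replicate 2 (adjusted p 0.0856), schisandrin B replicate 1 (0.0553) or schisandrin B replicate 3 (0.0916). Between schisandrin B and normal the difference was 0.02 with an interval of -0.55 to 0.59 (edgeR adjusted p 0.971).

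**Figure D3:**
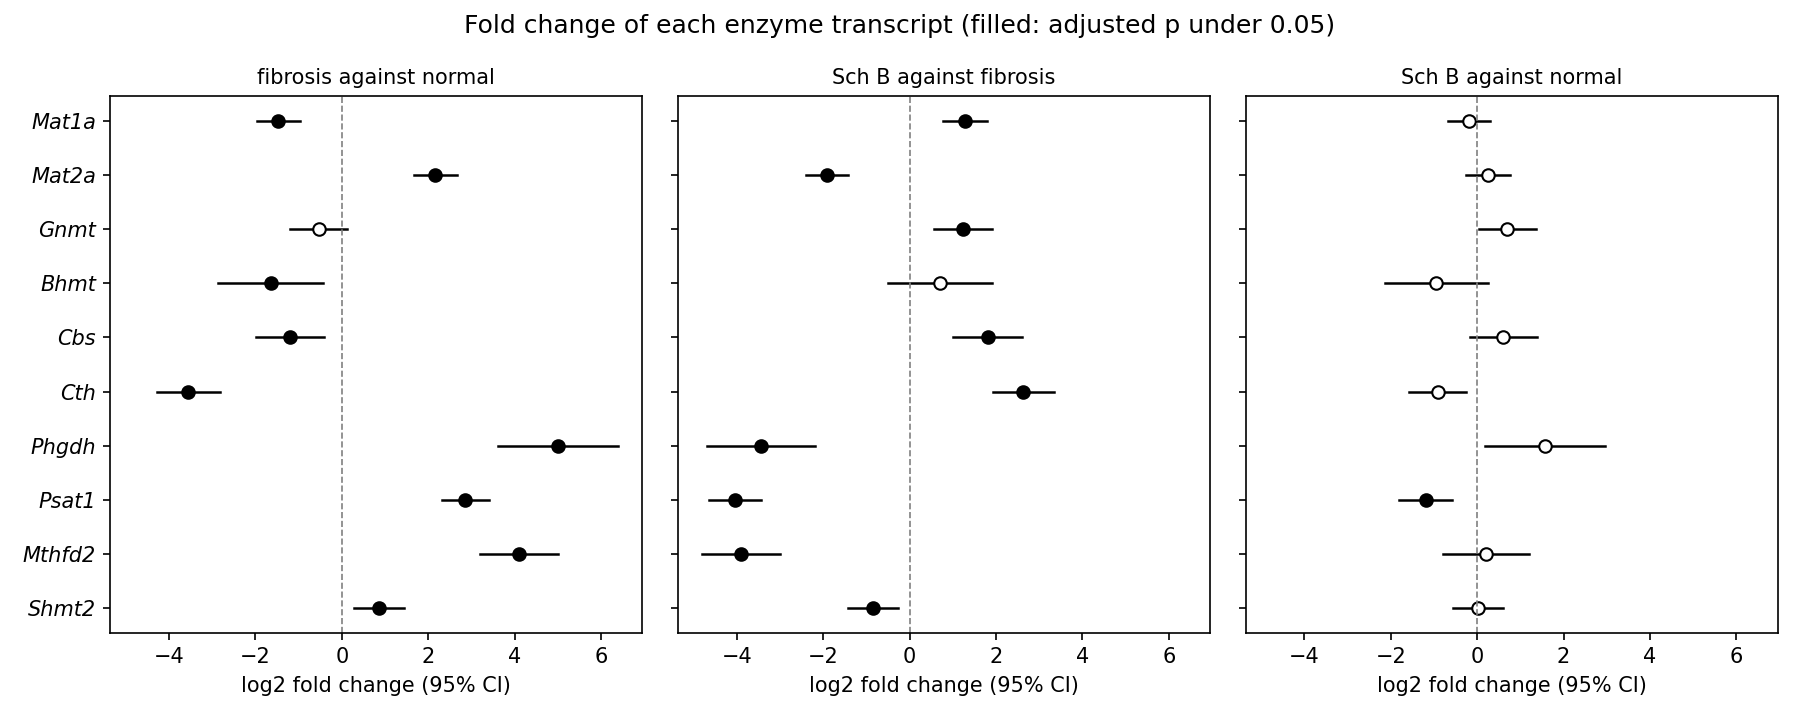
Points are log2 fold changes (horizontal axis) of the 10 genes in the 3 comparisons and lines their 95% intervals, with filled points for an edgeR adjusted p under 0.05. The first comparison runs from -3.55 for Cth to 5.01 for Phgdh, the second from -4.05 for Psat1 to 2.64 for Cth, and in the third Psat1 alone is filled.

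The members also differed in how evenly the fibrosis libraries behaved. Fibrosis replicate 1 was the lowest fibrosis library for Mat1a, Bhmt, Phgdh, Mthfd2 and Shmt2 and the highest for Mat2a, Gnmt and Psat1. The median coefficient of variation of the 10 members was 12.9% in the libraries labelled normal, 31.6% in fibrosis and 27.1% in schisandrin B libraries. These medians were not compared with those of all tested genes. In schisandrin B libraries Psat1, Phgdh and Mthfd2, at 36.9%, 33.1% and 32.4%, had only 9 to 78 counts, where counting error adds to the spread. Across the 9 libraries, Pearson's r of log2 CPM was -0.96 between Mat1a and Mat2a, 0.92 between Mat1a and Cth, 0.94 between Phgdh and Mthfd2, 0.91 between Psat1 and Mthfd2 and 0.90 between Gnmt and Cbs. It was lower between Gnmt and Bhmt, at 0.28. These values describe 9 libraries whose 3 group means they share.

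By the same measure, over 9859 other genes with a mean of at least 5 CPM, the pattern of Mat1a was most like those of Plg, which encodes plasminogen (r = 0.992), and Smim24 (0.992). Mat2a was most like Lmna, which encodes lamin A/C (0.997), and Sec22b (0.996). Gnmt was most like Ahcy (0.976), which encodes the hydrolase of S-adenosylhomocysteine, the product of methyl transfer, and Irf3 (0.969). Bhmt was most like RGD1565988 (0.980) and Prkab1 (0.977), Cbs most like Abcc8 (0.977) and Htra1 (0.966), and Cth most like LOC102550606 (0.994) and Abhd2 (0.992). Among the serine and folate members, Phgdh was most like Bcs1l (0.992) and Atf2 (0.989), Psat1 most like Ube2k (0.988) and Sf3b4 (0.987), Mthfd2 most like Ddx1 (0.985) and Exosc1 (0.985), and Shmt2 most like Rnf8 (0.959) and Ubr7 (0.955). An r over 0.95 was found for 623 genes with Mat2a and 307 with Mat1a but for 3 with Shmt2, 5 with Gnmt and 6 with Bhmt.

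Around the 10 members, 82 tested genes of 6 further pathway lists went both ways in fibrosis, with 24 called higher and 33 lower, or 29.3% and 40.2% beside 25.4% and 22.9% of all tested genes. Against fibrosis, 33 were higher and 25 lower with schisandrin B, or 40.2% and 30.5% beside 22.5% and 24.8%. Against the libraries labelled normal 4 were higher and 4 lower, or 4.88% each way beside 5.25%. The higher calls in fibrosis and both kinds of call of schisandrin B against normal were thus near the shares over all genes. So were the lower calls of schisandrin B against fibrosis, at 30.5% beside 24.8%. The counts of single lists have the same background, and the lists too were chosen with earlier results of these data known. The median of the 82 genes was -0.44, 0.36 and 0.04 on the log2 scale in these comparisons, beside 0.03, -0.03 and 0.00 over all tested genes. From each list, up to 4 genes with the lowest edgeR adjusted p between schisandrin B and fibrosis are named below. Large changes of these genes in comparisons with fibrosis libraries follow in part from that choice and do not stand for their list.

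Of the 12 genes listed under choline, betaine and glycine breakdown, 9 fell in fibrosis and 0 rose, with a median of -1.48. The list is wider than its name and also holds other enzymes, such as Glyat and Agxt2. With schisandrin B 10 of the 12 were called higher than in fibrosis and 0 lower, with a median of 1.22. Pipox, which oxidises pipecolate and sarcosine, fell by 1.87 ± 0.20 in fibrosis and was 2.41 ± 0.21 higher with schisandrin B. Sardh, which demethylates the sarcosine that Gnmt makes, was at 295 ± 44.7 CPM in the libraries labelled normal, 109 ± 23.5 CPM in fibrosis and 351 ± 33.9 CPM in schisandrin B libraries (SD, n = 3). Glyat, a glycine acyltransferase, and Agxt2, an aminotransferase, fell by 2.07 and 2.13 in fibrosis and were 2.15 and 2.30 higher with schisandrin B.

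In the methionine cycle and methyl transfer list of 13 genes, 4 rose and 4 fell in fibrosis, not far from the 25.4% and 22.9% of all tested genes, and 5 were higher and 5 lower with schisandrin B than in fibrosis. Gamt, which makes creatine, fell by 1.53 ± 0.19 and Mtrr, which reactivates methionine synthase, fell by 0.79 ± 0.21, and with schisandrin B they were 1.03 and 1.25 higher. Ahcyl2, a relative of Ahcy, rose by 1.76 ± 0.30 and was lower with schisandrin B, at -2.07. Ahcy itself was at -0.45 in fibrosis without a call and was called 0.97 higher with schisandrin B.

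Of 12 tested genes of the cysteine, glutathione and sulfide list, 3 rose and 5 fell in fibrosis, and 4 were higher and 6 lower with schisandrin B. Gclc and Gss, which make glutathione, rose by 2.86 ± 0.30 and 1.54 ± 0.18 in fibrosis. With schisandrin B they were lower, at -2.15 and -1.73. Tst and Mpst, sulfur transferases, fell by 2.59 and 1.04 in fibrosis and were 2.68 and 1.34 higher with schisandrin B.

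Among 11 tested genes of serine synthesis and breakdown, 4 rose and 4 fell in fibrosis, and 5 were higher and 3 lower with schisandrin B. Psph, the phosphatase that completes serine synthesis after Psat1, went from 4.58 ± 1.17 CPM in the libraries labelled normal to 25.0 ± 9.77 CPM in fibrosis and 5.18 ± 0.620 CPM in schisandrin B libraries (SD, n = 3), so that all 3 genes of that route were called in both comparisons. The serine and alanine transporter Slc1a4 rose by 2.54 and was lower with schisandrin B, at -2.70. Shmt1, the cytosolic counterpart of Shmt2, fell by 2.54 ± 0.26 in fibrosis, where Shmt2 rose, and was 2.16 ± 0.26 higher with schisandrin B. Gcat, which cleaves a threonine product to glycine, fell by 1.31 and was 1.17 higher with schisandrin B.

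The folate list of 18 tested genes had 4 higher and 8 lower in fibrosis, and 5 higher and 3 lower with schisandrin B. Mthfd1l, the mitochondrial formate-releasing enzyme downstream of Mthfd2, rose by 2.29 ± 0.39 and was lower with schisandrin B, at -3.02 ± 0.42. Atic, which uses formyl-folate to build purines, rose by 1.56 and was at -2.01 with schisandrin B. Ftcd, which passes carbon from histidine to folate, fell by 1.79, Mthfs fell by 1.49, and they were 2.03 and 1.39 higher with schisandrin B. Aldh1l2, the mitochondrial enzyme that oxidises formyl-folate and was chosen after its values were seen, did not move with Mthfd2 and fell by 1.57 ± 0.25 (edgeR adjusted p 0.000387).

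Of 16 genes of methionine salvage and polyamine turnover, which consume S-adenosylmethionine or recycle its remnant, 9 rose and 3 fell in fibrosis, with a median of 0.86. With schisandrin B 4 were higher and 8 lower than in fibrosis, with a median of -0.63. Srm, spermidine synthase, went from 8.31 ± 2.29 CPM to 76.6 ± 8.37 CPM in fibrosis and 11.4 ± 3.88 CPM with schisandrin B (SD, n = 3). Smox, which oxidises spermine, rose by 3.15 and Enoph1, of the salvage route, by 1.99, and they were at -3.43 and -1.95 with schisandrin B. Oaz2, an antizyme that holds down polyamine synthesis, fell by 1.53 and was 1.86 higher with schisandrin B.

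A list of ATF4 and further targets, not a full one, was set beside the serine and mitochondrial folate members. Members that fell, such as Cth, were not sorted by whether ATF4 acts on them. Of the 16 genes of the list 14 rose and 1 fell in fibrosis, with a median of 3.29, beside 25.4% and 22.9% of all tested genes. With schisandrin B 14 were lower and 1 higher than in fibrosis, with a median of -3.35, beside 24.8% and 22.5%. Slc7a11, with 0 counts in the libraries labelled normal and those of schisandrin B, reached a level in fibrosis at least 129-fold higher than in normal, and in schisandrin B against fibrosis it was at least 117-fold lower, with the groups at 0 set to 3 counts per library, and the medians were the same with it at these bounds. Atf4 itself was at 134 ± 14.1 CPM, 551 ± 70.3 CPM and 99.7 ± 5.63 CPM (SD, n = 3) in normal, fibrosis and schisandrin B libraries. Within this list the gene that went against the others was Atf5, at -0.93 in fibrosis and 0.85 with schisandrin B, named after its values were seen. Whether ATF4 activity plays a part in the changes of the members was not tested.

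Between schisandrin B and the libraries labelled normal, edgeR called 8 of 82 pathway genes, no larger a share than the 10.5% of all tested genes, so the count is no result about these lists. The genes given here were named after their values were seen. Sds, serine dehydratase, which turns serine into pyruvate, was at 682 ± 163 CPM with schisandrin B against 110 ± 55.6 CPM (SD, n = 3), a difference of 2.63 ± 0.59 (edgeR adjusted p 0.0204). Got1 and Slc25a32 were higher by 1.14 and 0.76. Papss2, Aldh1l1, Amd1 and Gcsh were lower, at -1.12, -0.93, -0.77 and -0.72. The count of 4 higher ran from 0 to 9 and that of 4 lower from 1 to 8 when single libraries were left out, and in the fit of the 2 groups alone 13 were higher and 11 lower.

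**Figure D4:**
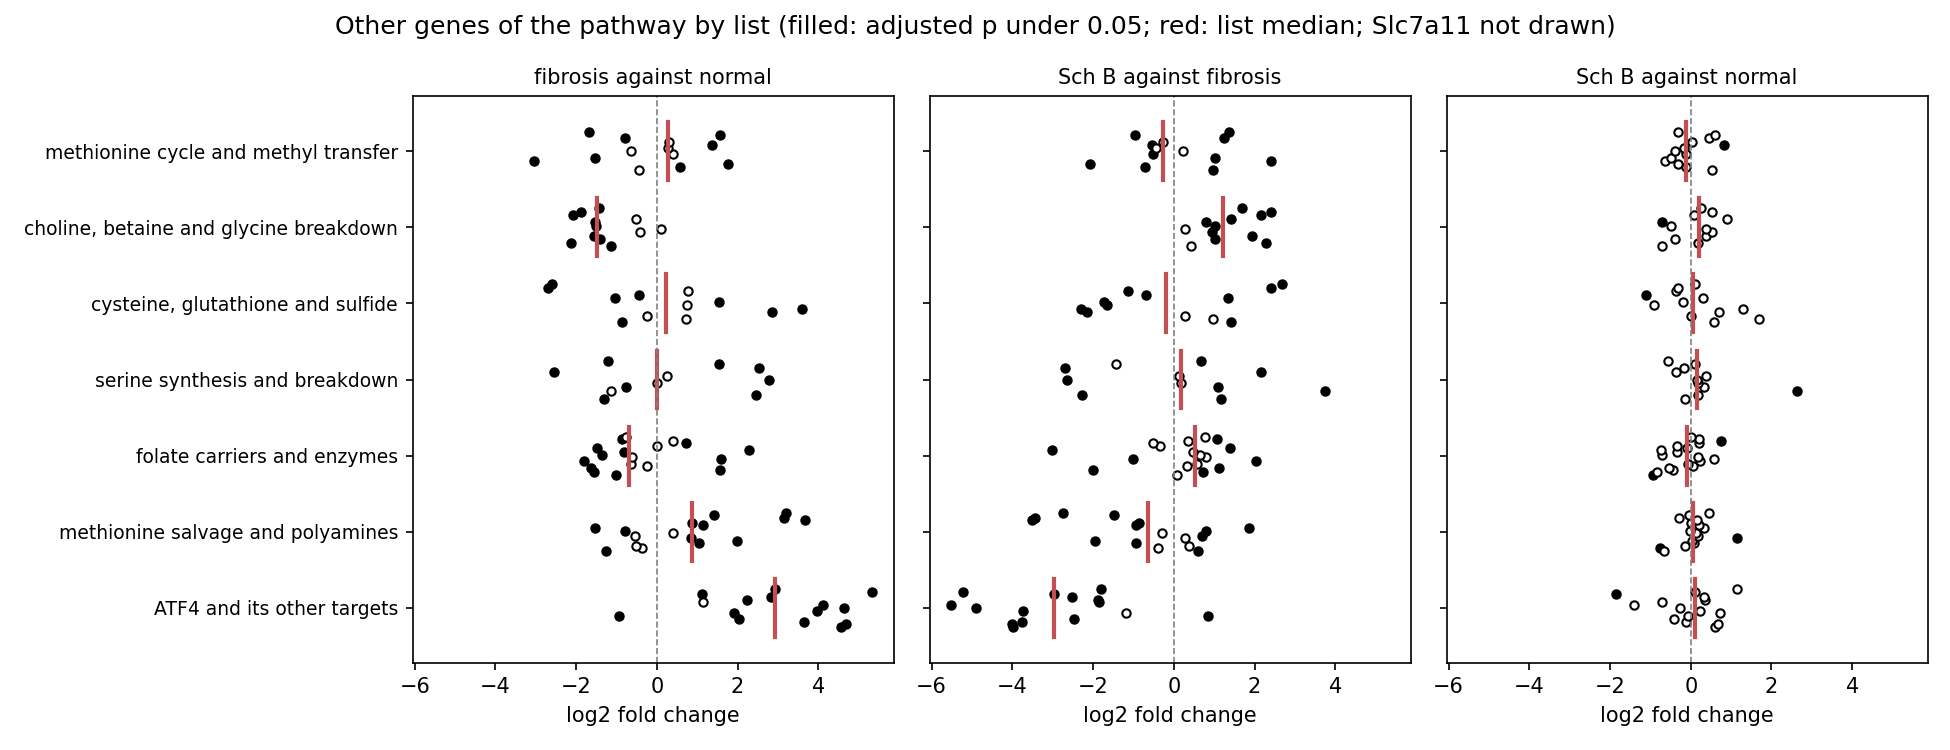
Points are log2 fold changes (horizontal axis) of single genes in 7 lists (rows) for the 3 comparisons, filled where the edgeR adjusted p is under 0.05, and red bars are the list medians of the genes drawn. Choline, betaine and glycine breakdown lies to the left in fibrosis and to the right with schisandrin B, ATF4 targets the reverse, and most points of the third panel are open.

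Other liver cell types did not all move one way beside these genes. The summed level of 6 cholangiocyte markers was 20.1 to 25.1 CPM in the libraries labelled normal, 52.4 to 64.4 CPM in fibrosis and 13.3 to 29.5 CPM in schisandrin B libraries, and 3 of 5 tested markers rose in fibrosis. Macrophage markers (7 in the table) summed to 985 to 1507, 693 to 1344 and 592 to 856 CPM in the same order, and endothelial markers (6) to 333 to 441, 239 to 286 and 285 to 311 CPM. Stellate and fibroblast markers (9) summed to 249 to 393, 264 to 444 and 464 to 631 CPM. T and NK cell markers (8) were at 17.5 to 24.6, 6.28 to 9.39 and 11.1 to 14.2 CPM, B and plasma cell markers (5) at 5.58 to 9.64, 1.70 to 2.00 and 3.57 to 4.11 CPM, and neutrophil markers (6) at 4.81 to 6.96, 10.3 to 12.7 and 1.43 to 4.52 CPM. In fibrosis 3 of 9 stellate and fibroblast markers rose, with Acta2 at 1.54, and 1 fell, Lrat at -3.45, named after its value was seen. Of 6 endothelial markers 3 fell and 0 rose, with a median of -0.48, and Pecam1, at 0.29 without a call, was the highest of them. Of 7 macrophage markers 1 fell and 0 rose, with Cd68 at -0.34 without a call. All 5 tested T and NK cell markers fell, with Cd3e at -1.35, as did 2 of 3 tested B and plasma cell markers. Of 3 tested neutrophil markers 1 rose, S100a8 at 1.53, and 0 fell. The cholangiocyte marker Krt7 was at 2.58 without a call. Cd79a in schisandrin B libraries, and Elane in fibrosis and schisandrin B libraries, were at 0 counts. Against fibrosis, schisandrin B libraries had 4 of 9 stellate and fibroblast markers called higher and 2 lower. Of tested endothelial (6), T and NK cell (5) and B and plasma cell (3) markers, 2, 1 and 1 were higher and 0 lower. Of cholangiocyte (5) and neutrophil (3) markers, 2 and 3 were lower and 0 higher, and 0 of 7 macrophage markers were called. Over all tested genes 22.5% were higher and 24.8% lower in that comparison, and 25.4% rose and 22.9% fell in fibrosis. Counts of so few markers near these shares are no result about the cells. The part of these cells in the values of the 10 members was not tested.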

How the data were processed

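Liver RNA was sequenced in 9 libraries of 3 groups. The authors deposited 1 table of unnormalized whole-number read counts, with a column per library per the file headers. The sources used here name no aligner or counter. The submitters' processing notes name the build GRCm38 and the labels list mouse, whereas the strain label and gene symbols are those of rat, so genes are reported by symbol without positions or sequences. The members and lists were chosen with earlier results of these data known.

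The counts were tested with edgeR 4.0.16 (R 4.3.3), using filterByExpr (14581 of 37203 genes kept), TMM scaling and a robust quasi-likelihood fit of all 9 libraries with 1 mean per group, with Benjamini-Hochberg adjustment over all tested genes. SEs are the log2 fold change divided by the root of the F statistic, and 95% intervals use the test's degrees of freedom. Ratios of Mat1a to Mat2a used log2 CPM with a prior count of 2 and exact two-sided permutation tests over libraries. Totals ran from 10320299 to 16255167 counts, and floors of 3 counts cover counting error only.

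All 10 members were named. Some genes of the other lists are not reported here. From each pathway list up to 4 genes with the lowest adjusted p between schisandrin B and fibrosis were named, and for each member the 2 genes of most similar pattern were determined. The settings varied 1 at a time were the scaling (DESeq2 size factors, upper quartile, library totals), the filter (none, or 5 CPM on average), the test (DESeq2 1.42.0, or voom from limma 3.58.1), the groups fitted, the threshold (0.01), the prior count (0.5, 5) and the libraries, each left out in turn. On simulated data with 14581 genes, 78% to 83% of planted 4-fold and 17% to 28% of 2-fold changes were recovered over the 3 comparisons. Of the calls 4.76% to 9.02% were false, the most in schisandrin B against fibrosis. Each simulation changed only 100 genes at either fold, far fewer than were called in each comparison of the data. Recovery and false calls in the data may therefore differ from these shares. Figures were drawn with Python 3.11.15 and matplotlib 3.10.9.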

Additional observations from a re-analysis of the deposited data

How the results depend on the processing

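No member reversed in the comparisons of fibrosis with normal or of schisandrin B with fibrosis under any of the 18 alternatives run. Mat1a, Mat2a, Cth, Phgdh, Psat1 and Mthfd2 were called in both under all 18. Library totals moved the median gene by 0.43 in fibrosis against normal, -0.27 in schisandrin B against fibrosis and 0.16 in schisandrin B against normal, and the upper quartile by -0.11, 0.13 and 0.02. With library totals the share of calls that were higher went from 52.7% to 74.7%, from 47.6% to 32.6% and from 50.0% to 70.3%. The members called lower in fibrosis went from 4 to 2 with library totals and to 2 at an adjusted p under 0.01. For schisandrin B against normal the count of members called higher, 0 at first, was 1 with library totals, 1 with DESeq2 and 3 in the fit of the 2 groups alone, and 0 to 1 without single libraries. The count called lower, 1 at first, was 2 with DESeq2, 2 in the fit of the 2 groups alone, 0 at the stricter threshold and 0 to 1 without single libraries. Of the other pathway genes in that comparison, 4 were higher at first, 10 with library totals, 13 in the fit of the 2 groups alone, 0 at the stricter threshold and 0 to 9 without single libraries. Those lower, 4 at first, were 7 with DESeq2, 11 in the fit of the 2 groups alone, 1 at the stricter threshold and 1 to 8 without single libraries. Mthfd2 in that comparison changed sign without normal replicate 3 (-0.18) and without schisandrin B replicate 1 (-0.06), in a range of -0.18 to 0.63 without single libraries. Shmt2 did so without normal replicate 2 (-0.075), schisandrin B replicate 1 (-0.034) and schisandrin B replicate 2 (-0.045), in a range of -0.075 to 0.14, never with a call. The difference in the log2 ratio of Mat1a to Mat2a stayed between -3.81 and -3.27 for fibrosis against normal and between 2.85 and 3.39 for schisandrin B against fibrosis. The causes of the changes with other settings were not tested. No paired analysis was possible because the labels carry no replicate numbers and those used here were assigned. Counts of 6 to 51 per library limit the precision for Phgdh, Psat1 and Mthfd2 outside fibrosis, apart from Phgdh with schisandrin B, at up to 78.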
